A study of Mus musculus with 2 samples.

Results

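Immune checkpoint genes encode receptors and ligands that restrain or tune immune cells, and 9 of them were followed here among the 27998 genes measured in regenerating mouse muscle. The set held Lag3, Pdcd1, Cd274, Pdcd1lg2, Ctla4, Havcr2, Tigit, Icos and Foxp3. The members were chosen by the summed Lag3 counts of macrophages, which were far higher 7 days after injury than 2 days after it, and by the contrast of macrophages with T cells, so those values describe the set and carry no test. Single cells were sequenced (10x Chromium v3) from tibialis anterior, a muscle of the shin, from C57Bl/6 mice after notexin, a snake venom toxin that destroys muscle fibres. The series held 2 libraries, 1 from day 2 and 1 from day 7, each from 1 mouse and from the whole dissociated muscle without sorting. No library came from uninjured muscle. The labels give both mice as female and 7 months old, while the deposited cell annotation gives males of 4 months (day 2) and 7 months (day 7).

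LAG3 is an inhibitory receptor best known on activated T and NK cells and on plasmacytoid dendritic cells, and it binds MHC class II. PD-1 (Pdcd1), CTLA-4, TIM-3 (Havcr2) and TIGIT are inhibitory receptors of T cells, PD-L1 (Cd274) and PD-L2 (Pdcd1lg2) are the ligands of PD-1, ICOS is a co-stimulatory receptor, and Foxp3 is the transcription factor that defines regulatory T cells. TIM-3 and PD-L1 are also made by macrophages and dendritic cells, and regulatory T cells are known to gather in injured muscle.

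The genes are placed here on the GRCm38 assembly. Lag3 (ENSMUSG00000030124) was at chr6:124904361-124911705 on the minus strand, directly beside Ptms and close to Cd4. Ctla4 (chr1:60887000-60915832) and Icos (chr1:60977927-61000320) were neighbours, as were Cd274 (chr19:29367455-29388095) and Pdcd1lg2 (chr19:29410919-29471161). Pdcd1 was at chr1:94038305-94052553, Havcr2 at chr11:46454935-46481255, Tigit at chr16:43648867-43664146 and Foxp3 at chrX:7573644-7595245.

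The day 2 library gave 41123913 counts in 4836 called barcodes and the day 7 library 32356088 counts in 4889. After quality limits 3178 and 3196 cells with a deposited cell type were used, and 1 cell barcode occurred in both libraries. Xist had 5 and 1 counts and 4 Y-linked genes together 6575 and 4856, which goes against the female label. Values below are counts scaled to 1e6 (CPM) of the summed counts of a cell type in a library, with 95% intervals in parentheses. These intervals cover counting error only, because 1 library per day allows no test of day, and differences between mice cannot be told apart from differences between days.

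Lag3 was almost absent from monocytes and macrophages at day 2 and abundant at day 7. The 6 monocyte and macrophage labels together held 9 Lag3 counts in 1292 cells at day 2, 0.546 CPM (0.250 to 1.04). At day 7 they held 1348 counts in 757 cells, 179 CPM (170 to 189), with a log2 ratio of 8.36 (7.43 to 9.49).

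The level was unequal among the labels at day 7. Cells annotated as patrolling monocytes had 233 CPM (209 to 260) from 334 counts, and M1 macrophages 207 CPM (192 to 223) from 693 counts. The ratio of these neighbours in the order had an interval that included equality (log2 0.17, -0.02 to 0.36). M2 macrophages with high Cx3cr1 had 159 CPM (137 to 183), dendritic cells 107 CPM (87.9 to 129) and M2 macrophages with low Cx3cr1 71.0 CPM (50.9 to 96.3). Each of these was below its neighbour in the order by more than counting error. Inflammatory monocytes had 19.8 CPM (9.87 to 35.4) from only 11 counts. From inflammatory monocytes downwards, through T cells, NK cells, FAPs (fibro-adipogenic progenitors) and endothelial cells, no neighbours differed beyond counting error among labels with at least 50 cells. Labels further apart could have separate intervals, as inflammatory monocytes and pro-remodeling FAPs, at 5.60 CPM (3.86 to 7.87), had. The 45 Cxcl10+ monocytes, too few for this order, had 192 CPM (150.5 to 241).

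The label names were checked against genes. C1qa, a complement gene of tissue macrophages, was present in each of the 6 labels at day 7, from 2019 CPM in inflammatory monocytes to 6609 CPM in Cxcl10+ monocytes. Cx3cr1 stood at 516 CPM in the high and 230.2 CPM in the low M2 label. These M2 labels differed in Lag3 by a log2 ratio of 1.16 (0.67 to 1.69), high over low. Patrolling monocytes had 4568 CPM of C1qa and 200 CPM of Cx3cr1, so by these genes they resembled the macrophage labels of the same library.

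At day 2 each of those labels had 0 to 3 Lag3 counts. The labels also differed between days in the genes used to check them. C1qa was 680 CPM at day 2 and 5206 CPM at day 7 in M1 macrophages, and 905 and 4568 CPM in patrolling monocytes. Cx3cr1 was 8.86 and 266 CPM in the former and 10.8 and 200 CPM in the latter. Over all 6 labels 10 macrophage genes summed to 20043.5 and 41116 CPM. The part of these differences in the Lag3 ratios was not tested. M1 macrophages held 3 Lag3 counts in 468 cells, for a log2 ratio of day 7 to day 2 of 8.87 (7.32 to 11.15). Patrolling monocytes held 1 count in 186 cells (9.34, 6.85 to 14.65), and inflammatory monocytes 3 counts in 276 cells (4.05, 2.13 to 6.53). The day 7 level of inflammatory monocytes lay below the 24.2 CPM of ambient barcodes of the same library, which hold 1 to 100 counts and stand for free RNA, and above the 0.929 CPM (0.192 to 2.71) of myogenic cells. The part of free RNA in it was not tested. The 38 Cxcl10+ monocytes held none, against which day 7 was at least 25.2-fold higher with a floor of 3 counts.

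**Figure D1:**
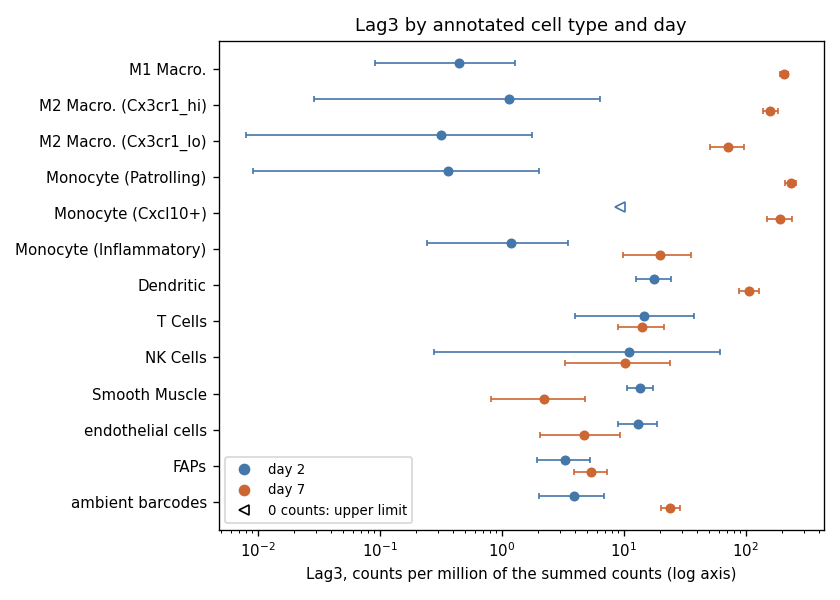
Lag3 in CPM (log axis) by annotated cell type at day 2 (blue) and day 7 (orange), with 95% Poisson intervals as bars and the upper limit as an open triangle where there were 0 counts. The 6 monocyte and macrophage labels sit at or below 1.19 CPM at day 2 and between 19.8 and 233 CPM at day 7, while T cells have 14.7 and 14.1 CPM.

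The counts were spread over many macrophages and were not the work of a few. At day 7, 325 of 757 monocytes and macrophages held a Lag3 count (42.9%, 39.4 to 46.5), 206 held at least 2, 31 held at least 10, and the highest cell held 65. The 10 highest cells carried 22.5% of the counts. Shares depend on depth, and cells with a count had a median of 10581 counts in all against 6745 for those without. With cells thinned to 2000 counts, and 4 shallower cells left out, the share was 17.9% (15.3 to 20.9), against 0.326% (0.00825 to 1.80) in myogenic cells, which should lack the gene. Unthinned, myogenic cells had 0.962% at a median of 6793 counts, against a median of 8546 in monocytes and macrophages.

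Signs of T cells did not move with Lag3 across these cells. A count of any of 6 T cell genes (Cd3e, Cd3d, Cd3g, Cd2, Lat, Lck) was present in 15 of 325 Lag3-positive cells (4.62%) and in 20 of 432 Lag3-negative cells (4.63%). All 325 held a count of a macrophage gene. So did 14 of 19 Lag3-positive T cells and 38 of 41 Lag3-positive dendritic cells of day 7. At day 2 it was 48 of 57 Lag3-positive smooth muscle cells and 21 of 31 endothelial cells. Lag3-negative cells were not counted for this. The 6 T cell genes summed to 6.12 CPM in day 7 monocytes and macrophages, with all 6 detected, against 1988 CPM in T cells. Without the cells that held such a count, 722 monocytes and macrophages were left at day 7 and 1260 at day 2, and the log2 ratio was 8.34. Lag3 in ambient barcodes was 3.93 CPM (2.03 to 6.86) at day 2 and 24.2 CPM (20.03 to 28.9) at day 7.

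T cells had little of it at either day. The 293 T cells of day 7 held 23 counts in 19 cells, 14.1 CPM (8.97 to 21.2), and the 50 T cells of day 2 held 4 counts, 14.7 CPM (4.0 to 37.6). At day 7 the T cell level was below that of monocytes and macrophages by a log2 ratio of -3.66 (-4.33 to -3.07), and it was also below the ambient level of 24.2 CPM. Only 1 T cell held more than 1 count, and it held 5. The share of T cells with a count was 6.48% (3.95 to 9.94) at a median depth of 3620 counts, against 4.97% (3.57 to 6.71) in FAPs at a median of 8429. Thinned to 2000 counts, with 45 of 293 T cells and 20 of 805 FAPs left out as shallower, the shares were 2.02% (0.658 to 4.64) and 1.15% (0.526 to 2.17). The T cell level in CPM lay above that of FAPs, 5.40 CPM (3.92 to 7.25), and of myogenic cells, 0.929 CPM (0.192 to 2.71). The part of free RNA in it was not tested. Of the 23 counts, 12 lay in 12 of the 117 T cells that held a Cd8 count and no Cd4 count (20.8 CPM, 10.8 to 36.3), and 1 in the 55 with a Cd4 count and no Cd8 count. Another 9 lay in 5 of the 117 cells with neither (12.5 CPM, 5.72 to 23.8), an interval that overlaps that of the Cd8 cells.

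Among dendritic cells Lag3 lay mostly in those with a count of Siglech, a surface lectin that marks plasmacytoid dendritic cells. This split was chosen after the values were seen. At day 7, 40 of 145 dendritic cells held a Siglech count and had 327 CPM of Lag3 (260 to 405), against 36.8 CPM (24.6 to 52.8) in the other 105. At day 2 only 11 of 170 held one, with 204 CPM (130 to 307) from 23 counts, against 7.37 CPM (4.13 to 12.2) in the other 159. Lag3 was thus high in the Siglech cells of both libraries. Over all dendritic cells Lag3 was 17.7 CPM (12.5 to 24.3) at day 2 and 107 CPM at day 7 (log2 ratio 2.59, 2.05 to 3.17), while Siglech was 32.6 and 354 CPM. The summed level of 6 plasmacytoid genes was 786 and 2657 CPM, a list not particular to these cells, since it summed to 1382 and 2307 CPM in smooth muscle with Ccr9 and Klk1 at 0. Their part in the Lag3 ratio was not tested. In dendritic cells 2 of the 3 members with enough counts, Lag3 and Havcr2, passed 4-fold higher at day 7, against 3.51% of all genes, and 0 passed 4-fold lower, against 1.48%.

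Vessel cells showed the opposite order of days. Smooth muscle cells had 13.7 CPM of Lag3 (10.7 to 17.3) at day 2, from 70 counts in 57 of 304 cells, and 2.21 CPM (0.813 to 4.82) at day 7, from 6 counts in 232 cells. The log2 ratio was -2.63 (-4.12 to -1.44). Endothelial cells had 13.2 CPM (9.02 to 18.6) and 4.77 CPM (2.06 to 9.39), with a log2 ratio of -1.47 (-2.80 to -0.32). In smooth muscle 1 of 2 members tested passed 4-fold lower, against 1.69% of all genes, and 0 passed 4-fold higher, against 3.58%. In endothelial cells 0 of 2 passed in either direction, against 2.14% of all genes lower and 3.87% higher.

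These vessel levels at day 2 stood above both the day 2 macrophages and the day 2 ambient level of 3.93 CPM. The thinned share of smooth muscle cells with a count was 3.64% (1.83 to 6.42) at day 2, with 2 shallower cells left out, against 0 of 537 neutrophils, with 171 left out, which allows a share of cells with a count of up to 0.559% at that depth and does not limit the share that express the gene. The unthinned shares were 18.8% at a median depth of 13232 counts and 0.141% at 2351. The 10 macrophage genes summed to 172 CPM in smooth muscle at day 2 and 160.2 CPM at day 7, and the 6 T cell genes to 3.13 and 9.96 CPM. In FAPs Lag3 was 3.31 CPM at day 2 and 5.40 CPM at day 7 (log2 0.71, -0.13 to 1.61). Muscle stem cells held 0 counts in 137 cells at day 7, which allows a share of cells with a count of up to 2.19% at this depth.

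Most of the other members were higher in T cells than in monocytes and macrophages. At day 7 the inhibitory receptors Pdcd1 and Ctla4, the co-stimulatory receptor Icos, the factor Foxp3 and the ligand Pdcd1lg2 were past 4-fold higher in T cells than in monocytes and macrophages, 5 of the 8 members with at least 20 counts, against 10.8% of all genes. Lag3 was the 1 member past 4-fold lower, against 6.86%. T cell genes were chosen into the set, and Pdcd1, Ctla4, Icos and Foxp3 met the minimum of counts only through T cells, where they were high. These counts and the median that follows therefore describe the set. The median over the 8 members was 3.71 on the log2 scale, against 0.40 over all genes.

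Ctla4 had 171 CPM (151 to 192) in day 7 T cells and 0.665 CPM (0.216 to 1.55) in monocytes and macrophages (log2 ratio 8.01, 6.77 to 9.64). Icos had 106 CPM (90.6 to 123) and 2 counts in all (8.64, 6.76 to 11.69). Pdcd1 had 33.8 CPM (25.5 to 44.0) and 6 counts in all (5.41, 4.19 to 6.91). These receptors thus had few counts in the class in which Lag3 was high. They were not read in the Lag3-positive cells alone. Foxp3 had 25.2 CPM (18.1 to 34.2) in T cells and 2 counts in monocytes and macrophages (6.57, 4.62 to 9.66), and Tigit 4 counts against 0, at least 6.17-fold higher.

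The ligands and Havcr2 crossed the cell types. Pdcd1lg2 was at 12.3 CPM (7.51 to 19.0) in T cells and 3.06 CPM (1.94 to 4.59) in monocytes and macrophages (log2 2.01, 1.07 to 2.94). Cd274 was at 40.0 CPM (30.9 to 51.0) and 32.0 CPM (28.1 to 36.4), with an interval that included equality (0.32, -0.10 to 0.72). Havcr2 was lower in T cells, at 16.6 CPM (10.9 to 24.2) against 35.5 CPM (31.4 to 40.0), with a log2 ratio of -1.10 (-1.72 to -0.52). The 10 macrophage genes summed to 1056 CPM in T cells and 41116 CPM in monocytes and macrophages. Their part in the T cell values of Havcr2 and Cd274 was not tested. Scaling by the median of gene ratios in place of total counts lowered these T cell ratios by 0.53, which took Pdcd1lg2 under 4-fold and Cd274 to -0.21.

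**Figure D2:**
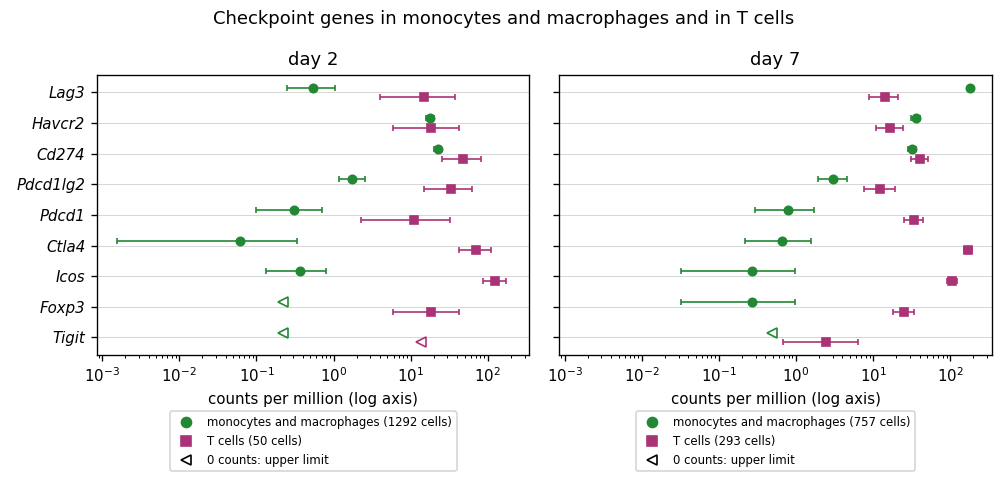
CPM (log axis) of the 9 genes in monocytes and macrophages (circles) and T cells (squares) at day 2 and day 7, with 95% Poisson intervals and open triangles for the upper limit at 0 counts. Lag3 in monocytes and macrophages stands at 0.546 CPM at day 2, left of the T cell value, and at 179 CPM at day 7, right of it.

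Within monocytes and macrophages the day contrast was narrow apart from Lag3. Of the 9 members 4 had at least 20 counts, and 1 of these, Lag3 by choice, passed 4-fold higher at day 7, against 7.1% of all genes. None passed 4-fold lower, against 2.62%. Havcr2 was 17.8 CPM (15.8 to 19.9) at day 2 and 35.5 CPM at day 7 (log2 ratio 0.998, 0.75 to 1.24). Cd274 was 22.4 CPM (20.2 to 24.9) and 32.0 CPM (0.51, 0.27 to 0.75). Both were higher at day 7 by less than 4-fold. Pdcd1lg2 was 1.76 CPM (1.18 to 2.53) and 3.06 CPM (0.80, -0.06 to 1.64). Pdcd1 had 5 and 6 counts, Ctla4 1 and 5, Icos 6 and 2, Foxp3 0 and 2 and Tigit none, so these genes were at the limit of detection at both days.

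T cells of the day 2 library need care. Of the 50 cells with that label 36 held a count of a T cell gene, and 17 held at least 3 counts of the 6 basophil genes, which summed to 4914 CPM against 562 CPM for the T cell genes. At day 7, 269 of 293 held a T cell count and the basophil genes summed to 11.7 CPM. Leaving out T cells with at least 3 counts of macrophage or basophil genes kept 29 of 50 and 259 of 293.

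Over all 50 and 293 cells, 0 of 8 tested members passed 4-fold in T cells between the days in either direction, against 1.9% of all genes higher and 1.99% lower. Ctla4 was 69.7 CPM (42.0 to 109) at day 2, from 19 counts in 4 cells, and 171 CPM at day 7 (log2 ratio 1.29, 0.62 to 2.05). That ratio became 0.09 without the mixed cells and 2.95 under stricter limits on cells. Icos was 125 CPM (86.4 to 174) and 106 CPM (-0.24, -0.78 to 0.34), and -1.48 without the mixed cells. Pdcd1 had 3 counts at day 2 and 55 at day 7 (1.62, -0.00 to 3.94), and the ratio was 0.39 without the mixed cells. Foxp3 had 5 and 41 counts (0.46, -0.88 to 2.16), with -0.72 without the mixed cells and 2.14 under stricter limits. Pdcd1lg2 was lower at day 7, 33.0 CPM (15.1 to 62.7) against 12.3 CPM (-1.43, -2.63 to -0.11). Cd274 was 47.7 CPM and 40.0 CPM (-0.26, -1.13 to 0.73), and 1.30 on the log2 scale without the mixed cells. Lag3 itself had an interval from -1.60 to 1.94 around -0.05.

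Ctla4, Icos and, from few cells, Cd274 had more CPM in T cells with a Foxp3 count than in those without, a split made, like that by co-receptor below, after values were seen. At day 7, 22 of 293 T cells held a Foxp3 count, and they had 820 CPM of Ctla4 (680 to 980), against 107 CPM (90.8 to 125) in the 271 without. Ctla4 was seen in 20 of the 22 (90.9%, 70.8 to 98.9) at a median depth of 6653 counts, in 61 of the 271 (22.5%, 17.7 to 28.0) at 3537, and in 0.528% of monocytes and macrophages at 8546. Icos was 232 CPM (161 to 325) and 93.3 CPM (78.4 to 110.2), and Cd274 was 95.6 CPM (52.3 to 160.4) and 34.5 CPM (25.7 to 45.3), also with separate intervals. The known regulatory T cell genes went the same way: the interleukin-2 receptor Il2ra with 219 CPM against 35.1 CPM, the co-stimulatory receptor Tnfrsf4 (OX40) with 867 against 63.5, Tnfrsf18 (GITR) with 492 against 85.2 and the transcription factor Ikzf2 with 710.4 against 129.8.

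Pdcd1 and Lag3 did not separate by Foxp3. Pdcd1 was 41.0 CPM (15.0 to 89.2) in cells with a Foxp3 count and 33.1 CPM (24.5 to 43.8) in the others, and Lag3 had 1 count against 22. Split by co-receptor, the 55 cells with a Cd4 and no Cd8 count had 545 CPM of Ctla4 (459 to 642) and the 117 with a Cd8 and no Cd4 count had 128 CPM (101 to 161). Havcr2 had 3.83 CPM (0.0971 to 21.4) from 1 count in the Cd4 cells and 26.0 CPM (14.6 to 42.9) from 15 counts in the Cd8 cells, with intervals that overlapped. Pdcd1 was 65.2 CPM (38.0 to 104) and 46.8 CPM (30.9 to 68.1). Cells were assigned by detected counts, and the 117 cells with neither transcript, at a median depth of 3468 counts against 3576 and 3695 in these subsets, stayed outside.

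**Figure D3:**
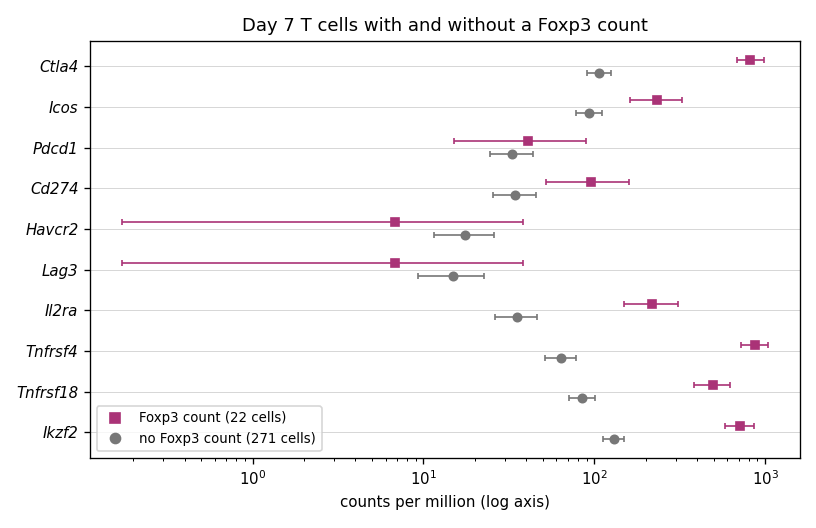
Levels in CPM (log axis) of 6 checkpoint genes and 4 regulatory T cell genes in day 7 T cells with (squares) and without (circles) a Foxp3 count, with 95% Poisson intervals. Ctla4 (820 against 107 CPM), Icos (232 against 93.3 CPM) and Cd274 (95.6 against 34.5 CPM) have separate intervals, while those of Pdcd1, Havcr2 and Lag3 overlap. The higher Cd274 value rests on 14 counts in 7 cells.

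Cd274, the ligand PD-L1, was highest in the neutrophils of day 2. They had 185 CPM (167 to 205) from 361 counts in 173 of 708 cells. Among labels with at least 50 cells this was above the next in the order, T cells, by 1.96 on the log2 scale (1.17 to 2.88). Between T cells and the remaining labels of day 2 no neighbours differed until pro-remodeling FAPs, at 2.57 CPM (1.17 to 4.87). Labels further apart could have separate intervals, as patrolling monocytes at 36.4 CPM (29.6 to 44.2) and M1 macrophages at 18.5 CPM (15.4 to 22.0) had. Pdcd1lg2, the ligand PD-L2, was likewise at 64.2 CPM (53.4 to 76.5) in neutrophils from 125 counts, against 1.76 CPM in monocytes and macrophages. The day 2 cells with this label had all 5 neutrophil genes at a sum of 291 CPM, beside 1692 CPM of basophil genes and 6371 CPM of macrophage genes, whose part in these values was not tested. Neutrophils of day 7, 10 barcodes, were too few to compare.

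At day 7 the order of Cd274 among labels with at least 50 cells was led by vessel cells, from capillary endothelium at 83.4 CPM, although no neighbours differed beyond counting error down to dendritic cells at 22.1 CPM. The ends of this run had separate intervals, 65.5 to 105 for capillary endothelium and 14.0 to 33.2 for dendritic cells. Endothelial cells had 17.7 CPM (12.8 to 23.9) at day 2 and 67.9 CPM (56.0 to 81.6) at day 7 (log2 ratio 1.94, 1.42 to 2.48). Smooth muscle had 14.9 CPM (11.7 to 18.6) and 52.8 CPM (44.5 to 62.2), with a log2 ratio of 1.83 (1.42 to 2.25), and FAPs 2.53 CPM (1.35 to 4.33) and 9.33 CPM (7.35 to 11.7), with a log2 ratio of 1.88 (1.02 to 2.85). The 3 ratios were thus between 1.83 and 1.94 in these stromal classes, just under 4-fold, beside the 0.51 of monocytes and macrophages. Ambient Cd274 was 16.05 CPM (11.9 to 21.2) at day 2 and 16.1 CPM (12.8 to 20.05) at day 7. FAPs lay below it at both days, and endothelial cells and smooth muscle lay at it at day 2 and above it at day 7. Free RNA makes up only part of a cell's counts, and myogenic cells of day 7 had 3.40 CPM of Cd274 (1.70 to 6.09). Its part in these ratios was not tested. Among the 6 monocyte and macrophage labels Cxcl10+ monocytes were highest, with 73.4 CPM (49.2 to 105) at day 2 and 101 CPM (71.8 to 138) at day 7.

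Havcr2, the receptor TIM-3, was found in myeloid labels and in T cells. T cells had 18.4 CPM (5.96 to 42.8) at day 2 and 16.6 CPM at day 7, within the range of the myeloid labels. The day 2 value came from 5 counts in 4 cells of a label that also held basophil genes. Its log2 ratio of day 7 to day 2 was -0.14, and 0.76 without the mixed cells. At day 2 it was 36.5 CPM (29.4 to 44.8) in inflammatory monocytes, 32.3 CPM (21.4 to 46.6) in M2 macrophages with high Cx3cr1 and 31.8 CPM (24.4 to 40.8) in neutrophils, which as neighbours in the order did not differ beyond counting error. It was lowest among macrophage labels in M2 macrophages with low Cx3cr1, at 2.54 CPM (1.10 to 4.998) at day 2 and 13.8 CPM (5.98 to 27.3) at day 7. In dendritic cells Havcr2 was 10.2 CPM (6.42 to 15.5) at day 2 and 54.8 CPM (41.5 to 71.1) at day 7 (log2 ratio 2.42, 1.69 to 3.20). Smooth muscle, endothelial cells and FAPs together held 4 Havcr2 counts at day 2 and 3 at day 7.

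**Figure D4:**
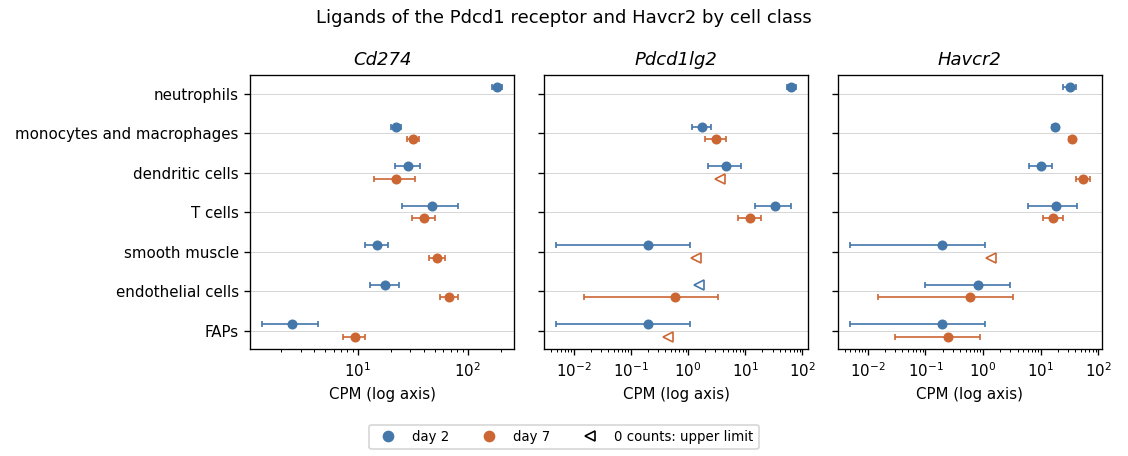
CPM (log axis) of Cd274, Pdcd1lg2 and Havcr2 in 7 cell classes at day 2 (blue) and day 7 (orange), with 95% Poisson intervals, open triangles at the upper limit where there were 0 counts, and no point for classes under 50 cells. Neutrophils lead Cd274 and Pdcd1lg2 at day 2 with 185 and 64.2 CPM, and Havcr2 stays at or below 0.825 CPM in the 3 stromal classes.

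Promoter sequence is shown for Havcr2, the member window with the most motif matches, and for Ctla4, a window with none, a pair chosen after the matches were seen. RefSeq windows on GRCm38.p6 were found for 7 of the 9 members, and not for Lag3 or Icos. The 250 bases before the start were searched on both strands for GGAAGT, a core of ETS factor sites, TGTGGT, a core of RUNX sites, and TGANTCA, the AP-1 site, and matches are in capitals. No matches overlap in the windows shown, and the RefSeq start of Ctla4 lies inside the gene's GENCODE span given above. The Havcr2 window (chr11:46454681-46454930, plus strand) held 2 matches of GGAAGT, 1 of TGTGGT and 1 of TGANTCA, whereas the Ctla4 window (chr1:60908775-60909024, plus strand) held 0 of the 3 motifs. Of the other members with a window, Tigit held 1 match of TGTGGT, and Pdcd1, Cd274, Pdcd1lg2 and Foxp3 held none. Whether matches follow cell type was not tested, with so few matches and no window for Lag3.
Havcr2: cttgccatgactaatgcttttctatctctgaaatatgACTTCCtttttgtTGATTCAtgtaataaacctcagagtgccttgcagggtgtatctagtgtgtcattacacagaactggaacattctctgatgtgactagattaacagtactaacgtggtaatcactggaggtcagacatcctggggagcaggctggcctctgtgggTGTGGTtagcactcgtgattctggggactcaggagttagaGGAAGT
Ctla4: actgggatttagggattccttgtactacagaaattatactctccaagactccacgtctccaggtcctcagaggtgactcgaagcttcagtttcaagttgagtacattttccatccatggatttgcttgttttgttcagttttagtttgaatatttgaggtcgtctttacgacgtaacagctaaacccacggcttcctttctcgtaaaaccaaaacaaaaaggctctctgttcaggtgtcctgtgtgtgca
Over 32851 windows of the same length 19.7% held GGAAGT, 14.0% TGTGGT and 6.75% TGANTCA. A match is a run of letters and was not tested as a binding site.

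The partners of these genes, a list of 42 ligands, receptors, co-stimulators and T cell state genes, were read in the same classes. Between the days 25 of them had enough counts in monocytes and macrophages, 6 passed 4-fold higher at day 7, against 7.1% of all genes, and 0 passed 4-fold lower, against 2.62%, with a median log2 ratio of 0.61 against -0.05 over all genes. The list was chosen with earlier results of these data known, so these values describe it. The genes of the LAG3 ligand were among the 6. For the MHC class II genes the log2 ratio was 3.65 (H2-Aa, 3.62 to 3.68), 3.64 (H2-Ab1, 3.61 to 3.67) and 3.73 (H2-Eb1, 3.69 to 3.76). Icosl, the ligand of ICOS, had 33 counts at day 2 and 106 at day 7 (2.82, 2.24 to 3.43), and Lair1, an inhibitory collagen receptor, had 818 and 1646 (2.14, 2.02 to 2.26). The sixth was Ikzf2, a transcription factor gene named after its values were seen, with 8 and 21 counts (2.52, 1.29 to 3.91).

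Other partners differed by less than 4-fold in both directions. The CTLA-4 and CD28 ligands were lower, Cd80 with 206 and 32 counts (-1.55, -2.14 to -1.01) and Cd86 with 2223 and 728 (-0.48, -0.60 to -0.36). Ceacam1, a proposed TIM-3 ligand, was lower (-1.71, -2.24 to -1.21), as were Cd244 (-1.73, -2.22 to -1.27) and the inhibitory receptor Lilrb4a (-1.64, -1.73 to -1.56). Lgals9 and Lgals3, galectins that bind TIM-3 and LAG3, had -0.35 (-0.46 to -0.24) and -0.16 (-0.18 to -0.14), and the TIGIT ligand Pvr -0.69 (-0.91 to -0.47). Vsir, which encodes the checkpoint protein VISTA, was higher (1.26, 1.18 to 1.34), and so was Cd40 (1.06, 0.84 to 1.28).

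In T cells against monocytes and macrophages at day 7, 14 of 35 tested partners were past 4-fold higher, against 10.8% of all genes, and 11 past 4-fold lower, against 6.86%, with a median of 0.05 against 0.40. These values too describe a list chosen with earlier results known. Cd28, the co-stimulatory receptor that competes with CTLA-4, was higher in T cells (5.67, 5.20 to 6.17), as was Cd226, the activating receptor for the TIGIT ligand (6.19, 5.02 to 7.68). H2-Aa (-4.74, -4.87 to -4.61), Cd86 (-2.44, -3.03 to -1.91) and Icosl (-2.52, -4.42 to -1.12) were lower. Cd96, another receptor of that group, had 58 counts in T cells and 0 in monocytes and macrophages.

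The genes around Lag3 on chromosome 6 were read because Cd4 lies next to it. Of the 15 genes that start within 150 kb and had at least 20 counts in day 7 monocytes and macrophages, Lag3 included, 7 passed 4-fold higher at day 7, against 7.1% of all genes, and 0 passed 4-fold lower, against 2.62%. Lag3 was chosen for its ratio, and the minimum at day 7 favours genes high at that day, so this count is a description. Cd4, the T helper co-receptor, had 3 counts at day 2 and 214 at day 7 (log2 ratio 7.29, 5.72 to 9.58), at 23.5 kb from Lag3. Pianp had 16 and 528 counts (6.18, 5.46 to 6.99) at 85.0 kb, and Gpr162, an orphan receptor, 9 and 228 (5.80, 4.85 to 6.94) at 47.7 kb. P3h3, a collagen prolyl hydroxylase, had 19 and 100 (3.53, 2.81 to 4.32), Cdca3, a cell cycle gene, 5 and 22 (3.27, 1.83 to 5.03), and Ptms, which encodes parathymosin, 2268 and 4760 (2.20, 2.13 to 2.27).

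The remaining 8 neighbours lay between -0.78 (Zfp384) and 1.12 (Ing4). Among them were the glycolytic enzyme gene Tpi1 (-0.07, -0.16 to 0.02), Usp5 (-0.53, -0.77 to -0.30), Mlf2 (0.68, 0.56 to 0.80) and Cops7a (0.51, 0.27 to 0.75). By position 6 of the 7 genes past 4-fold, from Cdca3 through P3h3, Gpr162, Cd4 and Lag3 to Ptms, followed each other, and Pianp stood apart from them beyond Mlf2 and Cops7a.

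The neighbours differed among themselves in other cells. In day 7 T cells Cd4 had 71.3 CPM against 28.5 CPM in monocytes and macrophages, while Pianp had 4.92 CPM against 70.2 CPM and Gpr162 1.85 CPM against 30.3 CPM. The T cell values came from 116, 8 and 3 counts. Cd4 was highest among the macrophage labels in M2 macrophages with low Cx3cr1, at 67.5 CPM, the label with less Lag3 than its high counterpart. In smooth muscle, where Lag3 was lower at day 7, Gpr162 was 7.64 CPM at day 2 and 1.85 CPM at day 7, Cd4 2.15 and 0.738 CPM, Pianp 1.37 and 3.69 CPM and Ptms 457 and 672 CPM. In dendritic cells Gpr162 was 1.86 and 9.62 CPM and Pianp 0.466 and 26.0 CPM.

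**Figure D5:**
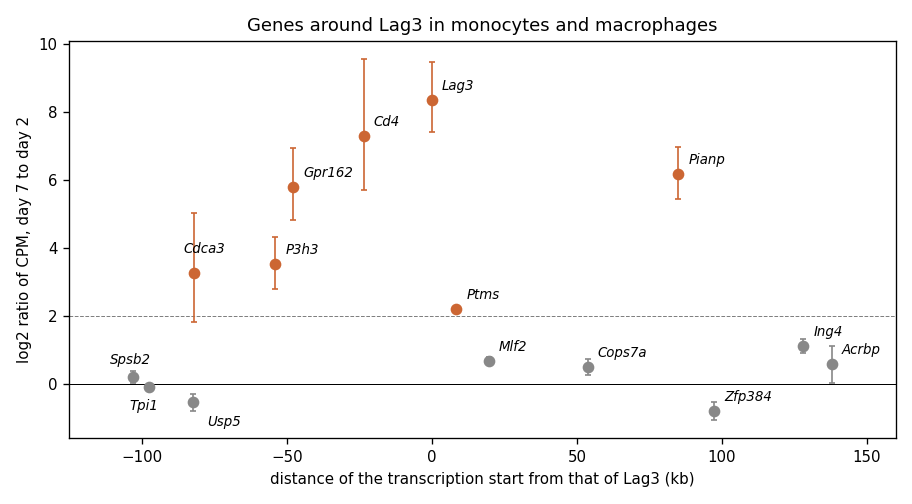
Log2 ratio of CPM, day 7 to day 2, in monocytes and macrophages for the 15 genes whose start lies within 150 kb of that of Lag3, against distance in kb, with 95% intervals. Orange points are past 4-fold (dashed line), and Lag3 (8.36), Cd4 (7.29), Pianp (6.18) and Gpr162 (5.80) stand highest.

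Across 29 groups of annotated cell type and day with at least 50 cells, the genes most like Lag3, Cd274, Havcr2 and Pdcd1 were ranked by Pearson's r of log2(CPM + 1), a description in which groups of 1 library share depth and ambient RNA. For Lag3 these were Gpr162 (0.860), the Toll-like receptor gene Tlr12 (0.817), Gpr34 (0.807), Fam69a (0.803) and Cd4 (0.791). For Cd274 they were Elmo1 (0.903), the interferon-induced Isg15 (0.872), Rab8a (0.864), Klf10 (0.862) and Ptbp3 (0.856). For Havcr2 they were Cyp4f18 (0.931), the interleukin-10 receptor Il10ra (0.926), Snx20 (0.919), AB124611 (0.917) and Myo1f (0.916). For Pdcd1 they were the T cell gene Cd5 (0.856), Nsg2 (0.841), Dapl1 (0.841), Cxcr6 (0.840) and Aqp3 (0.833).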

How the data were processed

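Dissociated tibialis anterior muscle was sequenced on 10x Chromium v3, and the deposited count files hold whole UMI counts per gene and barcode, which the authors made with Cell Ranger (3.1.0 in the submitters' notes, 3.0.1 in the matrix header) on mm10. A second matrix per library holds estimated counts that the authors corrected for ambient RNA with SoupX, used here only as an alternative. Cell types were taken from the authors' deposited annotation, whose sex and age are quoted above and whose other columns were not used. Cells with at least 750 genes, 1000 transcripts and at most 30% mitochondrial counts were kept, leaving 3208 and 3221 cells with medians of 9010 and 6557 counts. Doublets had no caller here. The annotation's own cell list left out 1299 and 1473 called barcodes, and cells with markers of another type were removed as an alternative.

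Counts were summed per cell type and day and scaled to CPM, with Python 3.11.15, numpy 2.4.6, scipy 1.17.1 and pandas 2.3.3. Intervals are 95%: exact Poisson for CPM, Clopper-Pearson for shares, and exact conditional binomial for log2 ratios. With 1 library per day no test was made and no p-value is given. A gene was tested for 4-fold with at least 20 counts in either group, and a count of 0 was set to a floor of 3. Ratios were checked on simulated counts. Ambient levels came from barcodes with 1 to 100 counts. Named genes were all members, up to 10 partners with at least 100 counts by size of the macrophage ratio, direct ligands or receptors of members, genes starting within 150 kb of Lag3 with at least 20 counts (GENCODE vM21), and the 5 genes most alike among those reaching 20 CPM; others were chosen after values were seen. The members and lists were chosen with earlier results of these data known. Alternatives were scaling by the median of gene ratios, the mean over cells, stricter limits (1500 genes, 3000 transcripts, 10% mitochondrial), all annotated cells, ambient-corrected counts (present at 0.5 or more), totals without mitochondrial and ribosomal genes, removal of mixed cells, other minimum counts and thinning.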

Additional observations from a re-analysis of the deposited data

Results flagged for a closer look

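Lag3 went in the opposite direction to monocytes and macrophages in vessel cells: its log2 ratio of day 7 to day 2 was -2.63 in smooth muscle and -1.47 in endothelial cells, where monocytes and macrophages had 8.36. The difference between the classes was not tested, since each day had 1 library.

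Members of the set were also counted in called barcodes that the annotation leaves out, which no comparison here used. At day 2 these barcodes had 3.58 CPM of Lag3, 17.4 CPM of Cd274, 2.34 CPM of Pdcd1lg2 and 9.50 CPM of Havcr2. At day 7 they had 31.9 CPM of Lag3, 7.57 CPM of Pdcd1, 21.3 CPM of Cd274, 5.05 CPM of Pdcd1lg2, 12.6 CPM of Ctla4, 11.7 CPM of Havcr2, 3.67 CPM of Icos and 2.07 CPM of Foxp3. Each was above what 3 counts would give. Of the 73 such barcodes with Lag3 at day 7, 66 held at least 3 counts of macrophage genes, against 11 of 21 at day 2.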

How the results depend on the processing

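Lag3 in monocytes and macrophages kept its direction under each alternative, its log2 ratio between days lying at 7.98 to 8.65, as did Lag3 in T cells against monocytes and macrophages (-4.19 to -3.33) and in M2 macrophages with high against low Cx3cr1 (0.90 to 1.28). The share of day 7 cells with Lag3 was 27.2% in monocytes and macrophages when at least 2 counts were asked and 17.9% when thinned, and in T cells 0.341% and 2.02%. Genes past 4-fold higher in monocytes and macrophages were 765 with at least 20 counts, 294 with at least 100 (3.64% of 8080) and 1340 with no filter (8.04% of 16674). In T cells 2 members passed 4-fold higher at day 7 under stricter cell limits, against 0. In T cells against monocytes and macrophages 4 members, not 5, passed with all annotated cells, with median-ratio scaling and without mixed cells. Averaging over cells gave 0.65 for Havcr2 in monocytes and macrophages, -0.08 for Pdcd1 in T cells between days and -1.82 for Havcr2 in T cells against monocytes and macrophages. The causes of these shifts were not tested. No paired analysis was possible because each day has 1 library, and for the same reason no replicate could be left out. Few counts limit Tigit, Foxp3 and Pdcd1 outside T cells, and 50 T cells at day 2 limit each T cell ratio between days.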

Other observations

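NK cells of day 7, with a median of 3991 counts per cell, held some of the same transcripts as T cells. Icos was 34.6 CPM (20.2 to 55.4) from 17 counts in 12 cells, Cd274 was 32.6 CPM (18.6 to 52.9) and Ctla4 was 16.3 CPM (7.03 to 32.1) from 8 counts in 3 cells. Pdcd1 and Foxp3 had 0 counts, which allows a share of cells with a count of up to 2.70% at this depth and sets no limit on cells that express them. All 6 T cell genes were detected in these cells, at a sum of 539.7 CPM against 1988 CPM in T cells. Cd3e alone was 6.11 CPM against 219 CPM. In the 21 NK cells of day 2 the list summed to 453 CPM with Cd3e and Cd3g at 0, so the sum is not particular to T cells. The part of T cell RNA in the NK values was not tested.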
